A study of Homo sapiens with 16 samples.

Results

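The genes described here are 8 receptor tyrosine kinases (MET, AXL, TYRO3, IGF1R, FGFR1, EPHA2, DDR1 and RET) and the ligands HGF and GAS6, 10 of the 58735 genes in the deposited tables. They were chosen by name, as receptors through which lung cancer cells can signal when the epidermal growth factor receptor EGFR is blocked, and all 10 were matched to 1 protein-coding entry each. RNA from 2 human lung adenocarcinoma cell lines was sequenced, in a study whose stated aims are the changes that accompany resistance to EGFR inhibitors and compounds acting on resistance genes. NCI-H1975, an established line with activating and drug-resistance mutations in EGFR, was left as a control, given magnolin (a lignan of Magnolia flower buds) or given the chloroform parts of Flos Magnoliae (a solvent extract of the same buds, called the chloroform fraction here), with 4 libraries per group. HCC827, an established line with an activating EGFR deletion, was sequenced as parental cells in 2 libraries. HCC827AR, the same line with afatinib resistance, was not analysed here. The labels give the genotype of the NCI-H1975 and parental HCC827 libraries as WT, the tissue as epithelium and the RNA as total RNA; they give no dose, no treatment time and no vehicle. They do not say whether libraries of a group came from separate cultures, so p-values measure the spread between these libraries, which may be technical.

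A receptor tyrosine kinase spans the membrane. When its ligand binds, the kinase domains of paired receptors phosphorylate one another and recruit adaptors of the RAS and PI3 kinase pathways. MET binds hepatocyte growth factor (HGF). AXL and TYRO3 bind GAS6. IGF1R binds the insulin-like growth factors, FGFR1 the fibroblast growth factors, EPHA2 the membrane-bound ephrins-A, DDR1 collagen, and RET a ligand of the GDNF family held by a co-receptor. In EGFR-mutant lung cancer, amplified MET, raised AXL and IGF1R signalling are known routes around EGFR inhibitors.

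The results below turn on MET, AXL, EPHA2 and GAS6, and the 250 bases before the start of each are shown for that reason. They come from RefSeq (GRCh38.p14), which held such a window for 9 of the 10 genes. The start used is the RefSeq start nearest to the start of the gene in the deposited tables. These starts lay 194 bases apart for MET, 20 for AXL, 18 for EPHA2 and 9 for GAS6. Capitals mark a GC box (GGGCGG, the core of a site for SP1) or a TEAD motif (GGAATG), on either strand. No marked motif overlapped another. The MET window lies at chr7:116671946-116672195 on the plus strand, and that of AXL at chr19:41218973-41219222 on the plus strand. The EPHA2 window is chr1:16156070-16156319 and the GAS6 window chr13:113864077-113864326, both on the minus strand.
MET: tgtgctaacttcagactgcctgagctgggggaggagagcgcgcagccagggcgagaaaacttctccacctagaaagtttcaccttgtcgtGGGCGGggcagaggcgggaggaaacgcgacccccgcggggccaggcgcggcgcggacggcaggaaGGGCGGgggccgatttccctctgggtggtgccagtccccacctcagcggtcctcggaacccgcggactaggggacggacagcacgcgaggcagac
AXL: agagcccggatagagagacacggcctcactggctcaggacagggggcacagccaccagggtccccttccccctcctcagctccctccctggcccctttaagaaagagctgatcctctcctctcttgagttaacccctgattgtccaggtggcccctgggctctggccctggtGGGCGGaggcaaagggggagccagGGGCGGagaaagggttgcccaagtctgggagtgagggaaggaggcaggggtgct
EPHA2: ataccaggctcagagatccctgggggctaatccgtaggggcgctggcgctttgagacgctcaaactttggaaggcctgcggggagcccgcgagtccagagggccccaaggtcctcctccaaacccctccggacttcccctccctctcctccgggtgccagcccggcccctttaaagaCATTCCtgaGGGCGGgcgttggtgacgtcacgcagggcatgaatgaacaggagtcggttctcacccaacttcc
GAS6: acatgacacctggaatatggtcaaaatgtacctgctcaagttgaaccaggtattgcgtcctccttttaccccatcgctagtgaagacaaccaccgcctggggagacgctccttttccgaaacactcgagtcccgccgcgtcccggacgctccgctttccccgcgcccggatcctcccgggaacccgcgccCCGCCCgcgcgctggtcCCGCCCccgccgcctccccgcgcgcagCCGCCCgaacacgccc
On hg38, the files place MET (ENSG00000105976) at chr7:116672390-116798386 and AXL (ENSG00000167601) at chr19:41219203-41261766, EPHA2 (ENSG00000142627) at chr1:16124337-16156087 and GAS6 (ENSG00000183087) at chr13:113820549-113864067.
The windows of MET and AXL held 2 GC boxes each, that of GAS6 held 3 and that of EPHA2 held 1, against 42.6% of 35114 RefSeq windows of this length with at least 1. The EPHA2 window also held 1 TEAD motif, which 11.9% of windows contain. An AP-1 motif (TGANTCA), present in 6.57% of windows, was found in none of these 4 and occurred once in that of TYRO3. The RefSeq start of TYRO3 lay 1537 bases from the start in the deposited tables, so that window falls inside the gene as placed there. A match is a description of these letters, not a site shown to be bound.

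Expression was given as FPKM, fragments scaled to the length of the gene and the size of the library, so that levels of different genes can be set side by side within a library. For the genes described, that length was the sum of all their exons in GENCODE 29, such as 4159 bases for EPHA2 and 13842 for FGFR1. It is not the length of the transcripts expressed, so the order and ranks of genes by FPKM carry that limit. The values came in 3 tables: libraries numbered 1 and 2 of each NCI-H1975 group (set A), those numbered 3 and 4 (set B), and HCC827. Reads rebuilt from FPKM and gene length amounted to 15.9 to 21.3 M per library, and 12106 to 14011 genes reached 1 FPKM. The 3 set A libraries numbered 1 stood apart from the other 9 NCI-H1975 libraries. Their correlation with the libraries numbered 2 was 0.915 to 0.938, against 0.976 to 0.984 among themselves. Of 12 epithelial markers, all were at 1 FPKM or more in the libraries numbered 1 and in HCC827, and 10 in every library numbered 2 and in set B. Their summed level was 1300 to 1540 FPKM in the libraries numbered 1, 413 to 602 in those numbered 2, 440 to 648 in set B and 2050 to 2230 in HCC827. The summed level of 10 mesenchymal markers ran the other way, at 156 to 195, 289 to 321, 302 to 312 and 57.2 to 59.5 FPKM, with TWIST1 at 0 in all of them. VIM, the largest part of that sum in NCI-H1975, was at 107 to 125 FPKM in the libraries numbered 1 and 167 to 210 in those numbered 2. SPARC (log2 2.32), ZEB1 (0.89) and VIM (0.74) were called higher in number 2 against number 1. FN1 and SNAI2 overlapped between the numbers. TWIST2 was at 0 in NCI-H1975 and at 9.27 and 7.87 FPKM in HCC827. Of 8 leukocyte markers, summed at 4.66 to 6.38 FPKM in the libraries numbered 1 and 0.642 to 1.19 in those numbered 2, CD79A and CSF1R carried the difference (log2 -1.91 and -0.84 in number 2 against number 1, both called), CD79A being at 3.25 to 3.73 FPKM in the libraries numbered 1. CD3E was at 0 in all 14 libraries. No protein-coding gene (0) was at 5 FPKM or more in all 3 libraries numbered 1 and under 0.5 in the other 9, and 0 genes showed the reverse. That count depends on the cuts: the epithelial marker GRHL2 was at 5.68 to 6.77 FPKM in the libraries numbered 1 and 0.0797 to 0.599 in the other 9. Fewer cells of a kind and less RNA per cell cannot be told apart in such bulk libraries.

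By FPKM, MET was the highest of the 10 genes in all 14 libraries and EPHA2 the second. The next place went to AXL in 8 of the 12 NCI-H1975 libraries, to DDR1 in 3 and to GAS6 in 1, and to DDR1 in both HCC827 libraries. In set B, MET (34.3 to 41.7 FPKM) and EPHA2 (21.1 to 32.0 FPKM) did not overlap. Below them, DDR1 (6.50 to 10.1), AXL (7.41 to 10.3), GAS6 (5.73 to 9.71) and IGF1R (5.38 to 6.99) overlapped in level. FGFR1 reached 4.36 to 5.29 FPKM and TYRO3 1.19 to 2.18, while RET and HGF stayed at or under 0.025. Among 58 receptor tyrosine kinases, MET ranked 1 in the set B control, at 37.7 ± 1.71 FPKM (SD, n = 2). EPHA2 followed at 31.2 ± 1.11, EGFR at 28.5 ± 0.713 and EPHB4 at 28.3 ± 2.76 (SD, n = 2 each), a spread within which EGFR and EPHB4 were not separated. DDR1 ranked 7, AXL 9, IGF1R 13, FGFR1 15, TYRO3 19 and RET 43 in those controls.

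**Figure D1:**
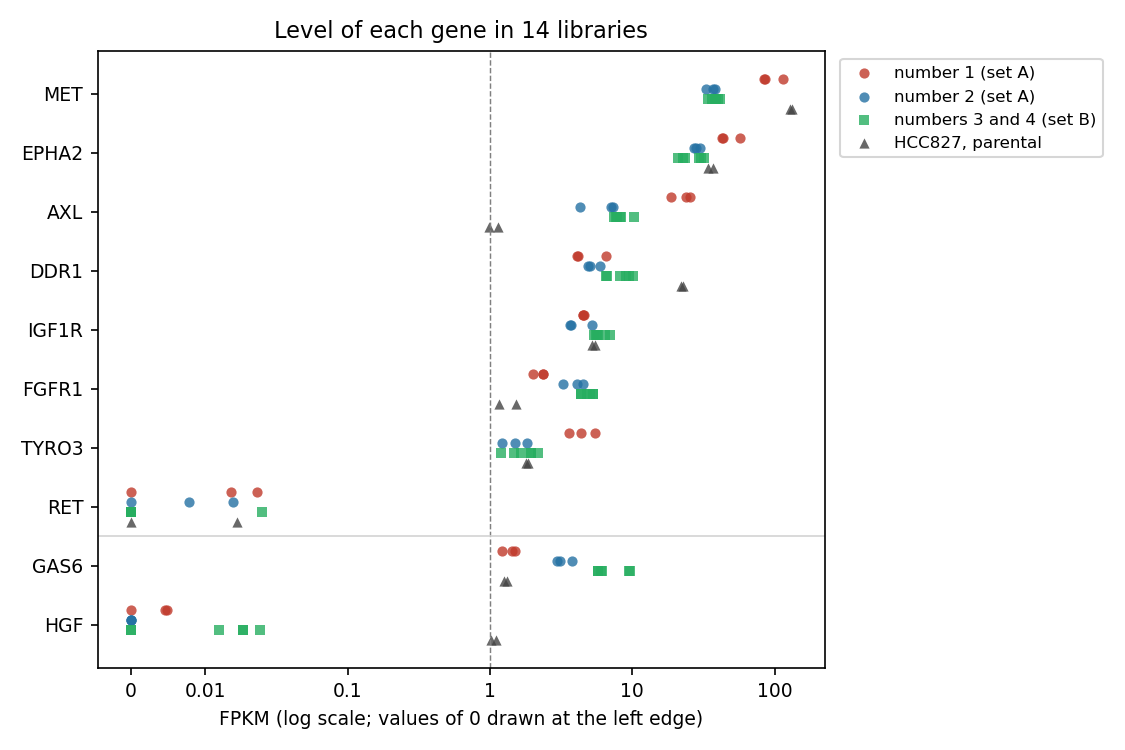
Level of the 10 genes (rows; receptors above the grey line, ligands below) in FPKM on a log axis, 1 point per library, with values of 0 drawn at the left edge and a dashed line at 1 FPKM. The red points of libraries numbered 1 lie to the right of the blue and green ones for MET, EPHA2, AXL and TYRO3 and to the left for FGFR1 and GAS6, and HGF exceeds 1 FPKM only in the 2 HCC827 libraries.

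Of the ligands, HGF, the ligand of MET, was nearly silent in NCI-H1975. It had 14 reads over 12 libraries (95% exact Poisson interval 7.7 to 23.5, counting error only), with at most 4 in a library and 6 libraries at 0. The HCC827 libraries held 165 and 189 reads, or 1.02 and 1.11 FPKM. GAS6, a vitamin K-dependent protein that links AXL and TYRO3 to phosphatidylserine on membranes, was at 1.21 FPKM in control 1, 2.98 in control 2, 5.73 in control 3 and 6.04 in control 4. The magnolin libraries had 1.5, 3.80, 6.16 and 5.73 FPKM of GAS6 and the chloroform fraction libraries 1.43, 3.11, 9.42 and 9.71, each in the order of their numbers 1 to 4. Parental HCC827 had 1.31 and 1.26 FPKM of GAS6. Between 143 and 964 reads per NCI-H1975 library stood behind the GAS6 values. Both set B libraries of the chloroform fraction thus lay above every other library, and the 3 libraries numbered 1 were near the HCC827 values. The share of all genes with that order is not given, and nothing particular to GAS6 is drawn from it.

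MET, the HGF receptor, was at 116 FPKM in control 1 and at 32.8, 36.5 and 38.9 FPKM in controls 2, 3 and 4. With magnolin it was at 86.0, 38.0, 40.1 and 41.7 FPKM, and with the chloroform fraction at 84.4, 36.9, 38.0 and 34.3 FPKM, in the order of the numbers. The 2 HCC827 libraries had 132 and 128 FPKM, so the NCI-H1975 libraries numbered 1 lay between the other NCI-H1975 libraries and HCC827. AXL, a receptor often high in mesenchymal-like cells, was at 23.8, 7.34, 7.41 and 8.21 FPKM in controls 1 to 4. Magnolin libraries held 18.6, 4.30, 7.85 and 7.70 FPKM of AXL, chloroform fraction libraries 25.4, 7.09, 8.28 and 10.3, and HCC827 0.989 and 1.14. AXL was therefore high in the libraries numbered 1 and low in HCC827. Against the other NCI-H1975 libraries, those numbered 1 had a higher summed level of epithelial markers and a lower one of mesenchymal markers. EPHA2, an ephrin receptor of epithelial cells, was at 43.5, 30.1, 32.0 and 30.4 FPKM in controls 1 to 4. It reached 42.6, 27.1, 22.9 and 21.1 FPKM with magnolin, 57.5, 27.9, 23.4 and 29.3 with the chloroform fraction, and 37.0 and 33.9 in HCC827. Set B controls lay above all set B magnolin and chloroform fraction libraries for this gene. Of all genes tested, 52.3% did not overlap between control and magnolin and 61.9% between control and chloroform fraction in set B. Nothing particular to EPHA2 is drawn from that order.

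TYRO3, the other GAS6 receptor, was at 4.35, 1.83, 2.18 and 1.96 FPKM in controls 1 to 4, within 1.19 to 1.95 in the other libraries of NCI-H1975 numbered 2 to 4, at 3.57 in magnolin 1 and at 5.49 in chloroform fraction 1. FGFR1, by contrast, was at 1.99, 2.35 and 2.37 FPKM in the libraries numbered 1 of control, magnolin and chloroform fraction, 3.26 to 5.29 in the other 9, and 1.53 and 1.15 in HCC827. IGF1R, the receptor of insulin-like growth factor 1, varied least. Its 12 NCI-H1975 values ran from 3.63 to 6.99 FPKM and those of HCC827 were 5.23 and 5.45. DDR1, a collagen receptor of epithelia, was at 4.09 to 6.52 FPKM in set A, 6.50 to 10.1 in set B and 22.2 and 22.7 in HCC827. RET, a receptor of neural and endocrine cells, had 11 reads over 12 NCI-H1975 libraries (95% exact Poisson interval 5.5 to 19.7), with reads in 5 of them, and 2 reads in HCC827.

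Between the lines, tables normalised separately allow levels to be set side by side but not tested. Set B controls and HCC827 stood apart in MET (37.7 ± 1.71 against 130 ± 2.76 FPKM), DDR1 (9.59 ± 0.789 against 22.5 ± 0.408) and AXL (7.81 ± 0.567 against 1.07 ± 0.109; SD, n = 2 each). GAS6 was at 5.89 ± 0.22 against 1.29 ± 0.038 FPKM and FGFR1 at 4.71 ± 0.447 against 1.34 ± 0.268, while HGF had 4 reads in those controls and 354 in HCC827. EPHA2 stood at 31.2 ± 1.11 against 35.4 ± 2.21 FPKM and IGF1R at 5.56 ± 0.262 against 5.34 ± 0.159. In HCC827 MET ranked 2 of 58 receptors behind EGFR, which was at 460 ± 17.9 FPKM.

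**Figure D2:**
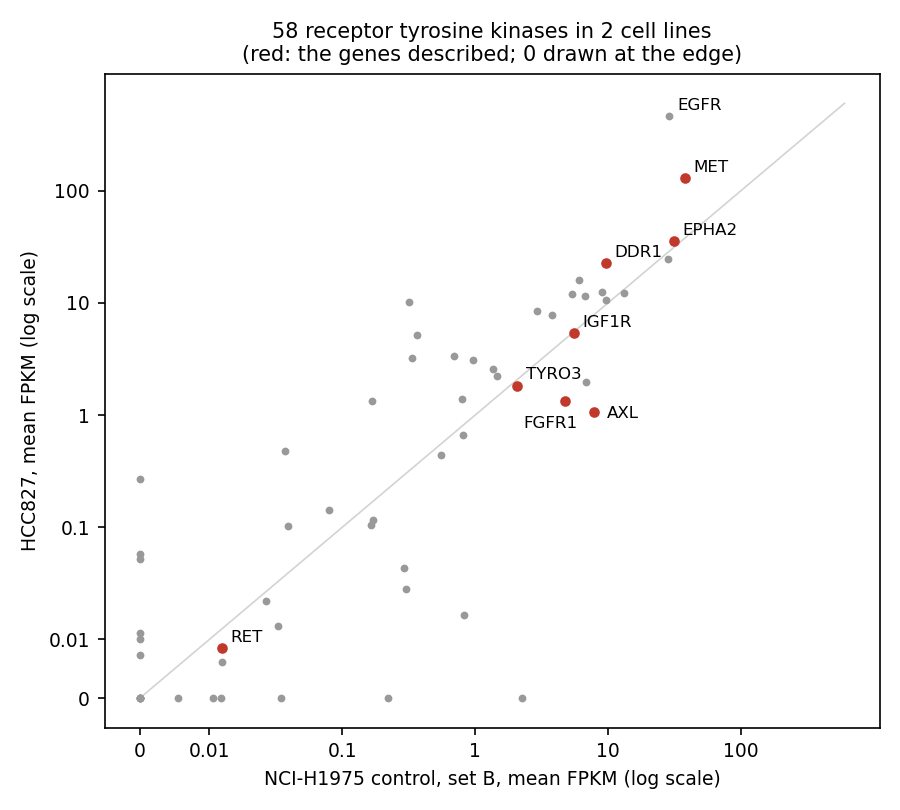
Mean FPKM of 58 receptor tyrosine kinases in the set B controls of NCI-H1975 (horizontal, n = 2) and in parental HCC827 (vertical, n = 2), both on log axes with 0 drawn at the edge, the genes described here in red and a grey line of equal level. MET (37.7 and 130 FPKM) and DDR1 lie above the line, AXL (7.81 and 1.07 FPKM) and FGFR1 below it, and EPHA2 and IGF1R near it.

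Within set A, libraries with the same number were compared across the 3 groups: number 2 against number 1, with group as a covariate. The number is a label and has no order. This contrast was set up because earlier results of these data showed libraries of a group far apart in set A. Its p-values are therefore not those of a comparison chosen before the data were seen. The comparison used limma on log2(FPKM + 1), with p-values adjusted by Benjamini-Hochberg over 13103 genes and a threshold of 0.05. Genes had to reach 1 FPKM in 2 libraries, which 8 of the 10 genes did (not HGF and RET). AXL was higher in the libraries numbered 1, with a log2 difference of number 2 from number 1 of -1.72 ± 0.154 (SE, adjusted p = 7.65e-07), and ratios of number 1 to number 2 of 3.24, 4.34 and 3.58 in control, magnolin and chloroform fraction. MET was higher there too (-1.37 ± 0.185, adjusted p = 4.33e-05), with ratios of 3.52, 2.26 and 2.29, and so was TYRO3 (-1.11 ± 0.153, adjusted p = 5.17e-05). EPHA2 differed by -0.72 ± 0.173 (adjusted p = 0.00418), a call lost without chloroform fraction 1 (adjusted p = 0.0747) or 2 (adjusted p = 0.0795) and without a filter on low genes (adjusted p = 0.0653). GAS6 was lower in the libraries numbered 1 (0.85 ± 0.15, adjusted p = 0.000447), as was FGFR1 (0.61 ± 0.145, adjusted p = 0.0041, or 0.0679 without the filter). For each of these 6 genes the 3 libraries numbered 1 lay outside the range of all other 9 NCI-H1975 libraries, as they did for 34.0% of the 13103 genes. IGF1R (adjusted p = 0.613) and DDR1 (adjusted p = 0.649) did not pass. So 6 of 8 genes passed, 4 of them lower in the libraries numbered 2 and 2 higher, where 39.7% of all genes tested passed, 20.5% lower and 19.3% higher. Nothing particular to these genes is drawn from the count. The epithelial markers moved with MET, AXL and EPHA2: 11 of 12 were lower in the libraries numbered 2, with a median log2 difference of -2.42 against 0 for all genes. Their share in the receptor differences was not tested.

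**Figure D3:**
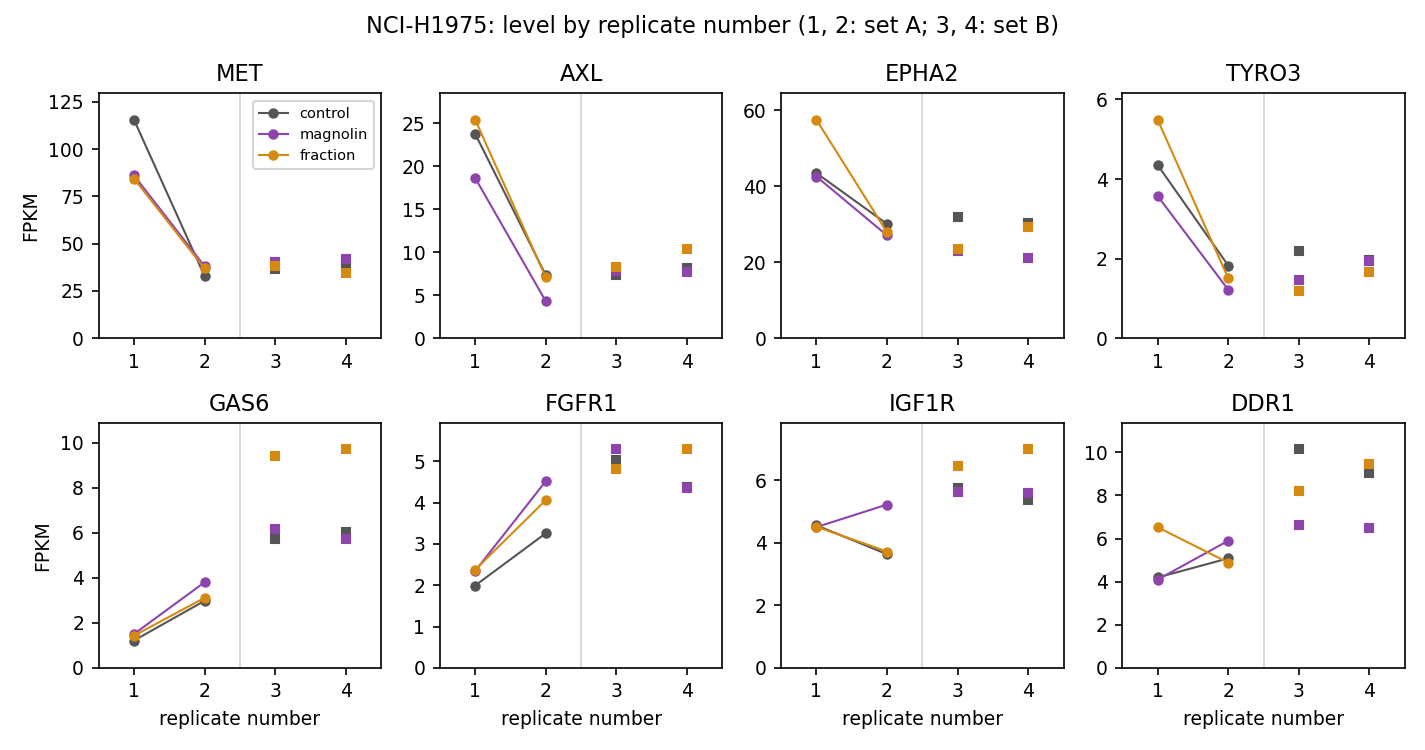
FPKM of 8 genes in the 12 NCI-H1975 libraries by replicate number, with lines joining numbers 1 and 2 of a group in set A and squares for numbers 3 and 4 of set B; all vertical axes start at 0. In all 3 groups MET, AXL, EPHA2 and TYRO3 are high at number 1 (MET 84.4 to 116 FPKM), GAS6 and FGFR1 are low there, and the chloroform fraction squares of GAS6 stand at 9.42 and 9.71 FPKM.

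Other genes of the same pathways were read from 4 lists, against the 39.7% of all genes that passed, and nothing particular to a list is drawn from its count. Of 50 further receptor tyrosine kinases, 21 were tested, 15 were lower in the libraries numbered 2 and 3 higher, with a median of -0.79 against 0 for all genes. The largest differences were in MERTK (-2.56), which also binds GAS6, EPHA1 (-1.99), the MET relative MST1R (-1.87) and ERBB3 (-1.64). Of 27 tested genes that process ligands or restrain receptors, 9 were lower and 5 higher. SPINT1, an inhibitor of the proteases that activate HGF, was at 53.4 ± 7.01 FPKM in the libraries numbered 1 and 4.01 ± 0.45 in those numbered 2 (SD, n = 3 each), a log2 difference of -3.44. ST14, a protease that can cleave HGF into its active form, differed by -3.40, and the insulin-like growth factor binders IGFBP7 and IGFBP2 by 2.63 and -2.26. Of 10 tested ligands and co-receptors 4 were higher and 1 lower, led by the collagen chain COL1A2 (2.81), a DDR1 ligand, and EFNA1 (1.26), an EPHA2 ligand. Adaptors and kinases downstream gave 4 higher and 6 lower of 29, led by IRS1 (-1.26), the adaptor of IGF1R, MAP2K1 (-1.14), IRS2 (0.89) and AKT1 (-0.79).

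The effect of the chloroform fraction on these receptors was asked in set B, whose 3 groups of 2 libraries shared 1 estimate of the spread. The 2 chloroform fraction libraries were the least alike. Their chi-square per gene on rebuilt reads was 11.6, against 3.73 for the control pair and 3.84 for the magnolin pair. The shared estimate may thus understate the spread in comparisons with the chloroform fraction. GAS6 rose from 5.89 ± 0.22 to 9.57 ± 0.205 FPKM (SD, n = 2 each), and the other 7 tested genes did not pass. The GAS6 difference was 0.62 ± 0.0796 on the log2(FPKM + 1) scale (SE, limma adjusted p = 0.00529), with all fraction values above all control values; 61.9% of the genes tested did not overlap between these pairs of libraries. Its adjusted p stayed between 0.012 and 0.05 when any 1 library of set B was left out. That is 1 of 8 genes, 1 in the higher direction, where 19.9% of 14673 genes passed, 8.33% higher and 11.6% lower. AXL differed by 0.22 ± 0.116 (adjusted p = 0.233), IGF1R by 0.23 ± 0.0829 (adjusted p = 0.103) and TYRO3 by -0.35 ± 0.168 (adjusted p = 0.202). EPHA2 differed by -0.25 (95% interval -0.53 to 0.04), DDR1 by -0.11 (-0.35 to 0.14), MET by -0.06 (-0.26 to 0.14) and FGFR1 by 0.09 (-0.20 to 0.37). AXL passed without chloroform fraction 3 (0.37, adjusted p = 0.0467) and EPHA2 without chloroform fraction 4 (-0.40, adjusted p = 0.0265). In limma voom on rebuilt reads TYRO3 (-0.55, adjusted p = 0.0316) and IGF1R (0.28, adjusted p = 0.0392) passed. These intervals do not show that the levels were equal.

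GAS6 shares 421 of its 6006 exon bases with GAS6-AS1, an RNA gene on the opposite strand. The labels name an unstranded and a strand-specific library protocol without saying which was used, so reads of the 2 genes in the shared bases cannot be told apart. GAS6-AS1 was at 9.98 and 9.93 FPKM in the set B controls, 12.1 and 9.64 with magnolin and 21.6 and 23.6 with the chloroform fraction. It rose with the chloroform fraction as GAS6 did, by 1.11 ± 0.114 (adjusted p = 0.00284). In HCC827 GAS6-AS1 was at 0.0423 and 0.0483 FPKM while GAS6 was at 1.31 and 1.26. The share of GAS6 reads that lie in those bases was not tested. AXL and FGFR1 also overlap opposite-strand genes, AXL by 67 exon bases with AC011510.1 (at most 1.07 FPKM) and FGFR1 by 156 with AC087623.1 and 138 with LETM2 (at most 1.49 and 1.41 FPKM).

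Some genes on the lists of cell type markers also differed between the chloroform fraction and control in set B. The summed level of 12 epithelial markers was 640 to 648 FPKM in the set B controls and 440 to 483 with the chloroform fraction, that of 8 fibroblast markers 19.8 to 25.3 and 9.85 to 10.5, and that of 6 endothelial markers 4.46 to 6.56 and 1.05 to 1.11. Of 10 epithelial markers tested, KRT8 (-0.87) and KRT18 (-0.75) fell and CLDN7 (0.59) rose, with a median of -0.12 against -0.01 for all genes. CDH5 (-2.08), at 4.39 and 3.07 FPKM in the controls and 0.172 and 0.0498 with the chloroform fraction, carried most of the endothelial sum in the controls and most of its fall. With the chloroform fraction PECAM1 (0.712 and 0.764 FPKM) made up most of that sum. COL1A2 and COL1A1, both also on the list of ligands, were the fibroblast markers that fell. The leukocyte sum was 1.22 to 1.39 and 0.922 to 0.972 FPKM, and CD3E, CD163 and AIF1 were at 0 in set B while CD79A, CSF1R and CD68 were not. The mesenchymal sum was 302 to 306 and 304 to 310 FPKM, with SNAI2 (0.74) and VIM (0.38) higher and SPARC (-0.80) and FN1 (-0.43) lower among 5 tested. Their part in the GAS6 result was not tested.

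Genes around the receptors were read from the same 4 lists, against the 19.9% of all genes that passed in this comparison. Among 11 tested ligands and co-receptors 4 fell and 0 rose: COL1A2 by -1.08 and COL1A1 by -0.51, both collagen chains that DDR1 can bind, EFNA1 by -0.80, and PROS1, which binds TYRO3, by -0.60. Among 27 processing and feedback genes 8 rose and 4 fell, with a median of 0.17 against -0.01 for all genes. IGFBP3, which holds insulin-like growth factors away from IGF1R, rose from 5.28 ± 0.485 to 14.9 ± 0.181 FPKM (SD, n = 2 each). SPRY4 (1.85 ± 0.106 to 4.68 ± 0.237 FPKM) and SPRED1 (5.41 ± 0.0145 to 9.83 ± 0.083 FPKM), feedback inhibitors of RAS signalling, rose, and LRIG1 (-0.63), which promotes receptor degradation, fell. Of 17 further receptors INSR (0.41) and PTK7 (0.37) rose and ROR1 (-0.55) fell. With the replicate block PTK7 did not pass, and 5 processing and feedback genes rose and 3 fell. Of 30 downstream genes 2 rose and 3 fell, led by IRS2 (1.22), an adaptor of IGF1R, MAPK3 (-0.67), NRAS (-0.49) and MAP2K1 (0.42).

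Magnolin, the single compound, was compared with the same set B controls. None of the genes passed (0 of 8), where 0.627% of 14673 genes did (92, or 43 with the replicate block). The smallest adjusted p belonged to DDR1, at 10.1 and 9.03 FPKM in the controls and 6.61 and 6.50 with magnolin, a difference of -0.48 ± 0.0989 (adjusted p = 0.109). EPHA2, at 32.0 and 30.4 against 22.9 and 21.1 FPKM, differed by -0.49 ± 0.116 (adjusted p = 0.153). Neither gene overlapped between the groups, which held for 52.3% of all genes tested. Both passed among protein-coding genes alone (adjusted p = 0.0335 and 0.0427) and in limma voom on rebuilt reads (adjusted p = 0.00398 and 0.00669). For AXL, GAS6, IGF1R and FGFR1 the differences were at most 0.03 in size. MET differed by 0.11 (95% interval -0.08 to 0.31) and TYRO3 by -0.19 (-0.60 to 0.22). None (0) of the genes in the 4 pathway lists passed, while the epithelial keratins KRT8 (-0.53) and KRT18 (-0.51) fell, though not with the replicate block. Of 10 epithelial markers tested, 0 had a difference above 0, with a median of -0.43 against 0.01 for all genes. The epithelial sum was 459 to 467 FPKM. The part of that shift in the DDR1 and EPHA2 values was not tested.

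Set directly against magnolin, the chloroform fraction had more GAS6: 9.57 ± 0.205 against 5.95 ± 0.302 FPKM (SD, n = 2 each), a log2 difference of 0.61 ± 0.0796 (adjusted p = 0.0101). The call was lost without magnolin 3 (adjusted p = 0.0579) or magnolin 4 (adjusted p = 0.0897). This was 1 of 8 genes, where 14.9% of all genes passed (2188, or 1311 with the replicate block), 5.55% higher and 9.36% lower. DDR1 was 0.38 ± 0.0989 higher (adjusted p = 0.0538) and passed among protein-coding genes alone (adjusted p = 0.0238). It also passed without chloroform fraction 3 (0.47, adjusted p = 0.0313), as did AXL (0.37, adjusted p = 0.0473) and EPHA2 (0.40, adjusted p = 0.0289). IGF1R passed in limma voom (0.30, adjusted p = 0.0326). The 3 comparisons of set B share libraries and are not independent. Among pathway genes IGFBP3 (1.41), SPRY4 (0.77), SPINT1 (0.71) and SPRY1 (0.64) were among 5 of 27 processing and feedback genes that were higher, with 3 lower. EGFR, the target of the inhibitors, was 0.35 higher, the single call among 17 other receptors, and IRS2 was 0.89 higher. NRAS (-0.51) and COL1A2 (-0.56) were lower. The calls of EGFR, SPRY1 and COL1A2 were lost with the replicate block, which left 4 processing and feedback genes higher and 1, the protease ADAM10 (-0.44), lower. GAS6-AS1 was higher as well (adjusted p = 0.00701). Of 10 epithelial markers tested 6 were higher and 1 lower in this comparison, with a median of 0.44 against -0.02 for all genes, led by CLDN7 (0.91), ESRP2 (0.59), CLDN4 (0.53) and CDH1 (0.45), with KRT8 (-0.34) lower. Of these, 2 higher and 1 lower remained called with the replicate block. Their part in the GAS6, DDR1 and EPHA2 values was not tested.

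**Figure D4:**
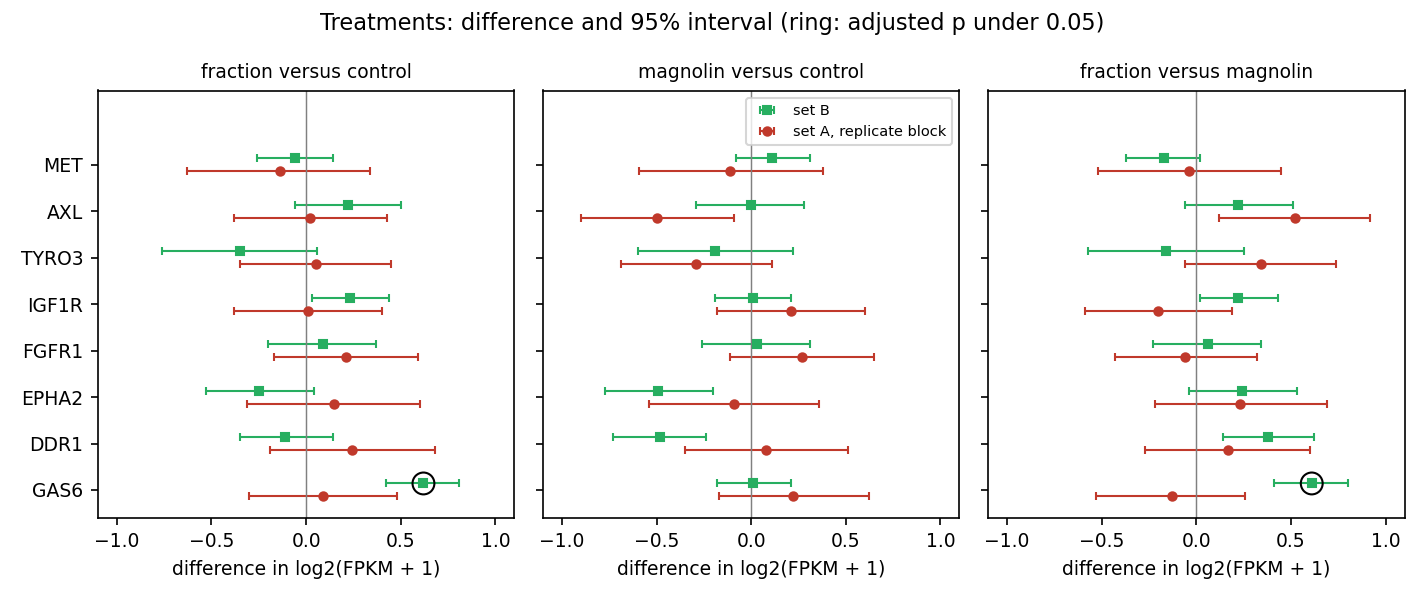
Difference in log2(FPKM + 1) with its 95% interval for 8 genes in 3 comparisons, in set B (green squares) and in set A with a replicate block (red circles); a ring marks an adjusted p under 0.05. Rings are at GAS6 in set B alone, for the chloroform fraction against control (0.62) and against magnolin (0.61).

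In set A the same contrasts gave no called gene among 13103 without regard to the numbers (0% in each; limma, with 107, 255 and 93 genes at an unadjusted p under 0.05 for chloroform fraction against control, magnolin against control and chloroform fraction against magnolin). A replicate block gave 24, 130 and 24 called genes (0.183%, 0.992% and 0.183%), and 0 of the 8 genes. AXL came closest. It was lower with magnolin in both numbers, 18.6 against 23.8 FPKM and 4.30 against 7.34, a difference of -0.50 ± 0.188 in the blocked fit (adjusted p = 0.229). In set B the AXL difference was 0.00 ± 0.116. GAS6 with the chloroform fraction was at 1.43 against 1.21 FPKM and 3.11 against 2.98, a blocked difference of 0.09 (95% interval -0.30 to 0.48), against 0.62 (0.42 to 0.81) in set B. Whether the sets differ was not tested.

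Over both sets, with a term for the set, 1 of 15428 genes passed for the chloroform fraction against control (0.00648%) and 24 with the replicate block (0.156%). Magnolin against control and chloroform fraction against magnolin gave 0% with and without the block (limma; 693 and 529 genes at an unadjusted p under 0.05 without it). In all of these fits 0 of the 8 genes passed. GAS6 differed by 0.35 (95% interval -0.22 to 0.93) and MET by -0.10 (-0.92 to 0.72) for the chloroform fraction, intervals that take in the spread between libraries numbered 1 and 2. Without the 3 libraries numbered 1 the called genes rose to 222 for the chloroform fraction and 10 for magnolin, again with 0 of the 8. The number of genes tested is not given for these fits, and nothing particular to the 8 genes is drawn from the count.

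The genes most like 4 of the receptors across the 12 NCI-H1975 libraries were found by Pearson correlation of log2(FPKM + 1), centred within each set, over 9617 protein-coding genes. The libraries fall into separate clusters and share their depth and table, so r is given as a description, first over all 12 and then without the 3 numbered 1. MET was closest to ARFGEF1 (0.996, then 0.882), IDS (0.991, then 0.639) and GULP1 (0.991, then 0.651). AXL was closest to MAEA (0.992, then 0.958), the EGFR ligand AREG (0.987, then 0.884) and F2RL1 (0.983, then 0.806). EPHA2 was closest to another ephrin receptor, EPHB4 (0.978, then 0.955), to CYB561 (0.963, then 0.911) and to RPS6KA4 (0.96, then 0.862). IGF1R was closest to HELZ2 (0.937, then 0.979), NIPAL3 (0.932, then 0.933) and EPAS1 (0.928, then 0.965). MET and AXL, both high in the libraries numbered 1, had an r of 0.9 over all 12, then -0.65, and EPHA2 and DDR1 one of 0.37, then 0.84. These pairs were not planned. Others had values of similar size without the libraries numbered 1, such as GAS6 with IGF1R (0.79) and with TYRO3 (-0.71).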

How the data were processed

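Total RNA of 12 NCI-H1975 and 2 parental HCC827 libraries was sequenced. The authors deposited FPKM values in 3 tables, on hg38 per the submitters' processing notes; the sources used here name no aligner, counter or annotation. All 58735 gene IDs occur in GENCODE 29. Reads rebuilt from FPKM and gene length came out whole (within 0.05, up to 2000 reads) for 100% of values. The names of 2 deposited columns fit no label; these columns were left aside. Tests used limma 3.58.1 (R 4.3.3) with a mean-variance trend on log2(FPKM + 1), genes at 1 FPKM or more in 2 libraries, and Benjamini-Hochberg adjustment with a threshold of 0.05; the fits were tested on simulated data. A fold on this scale understates the change of low genes. Members and lists were chosen with earlier results of these data known. Named were all members, up to 4 called genes per list and comparison with the largest change, and the 3 genes most like MET, AXL, IGF1R and EPHA2. IGF2, with 2 IDs, was left out of the lists. GAS6-AS1 and the other overlapping genes were named after their values were seen, for their shared exons. Over the 4 numbers, deviations from the group means had r from 0.29 to 0.84 in 12 pairs of libraries with the same number. Those deviations also hold the difference between the sets, so this r cannot show pairing within a set. Within set A alone r ran from 0.704 to 0.743, and within set B alone from -0.027 to 0.024. Set B values thus show no pairing by number, and the replicate block is given there as an alternative only. Python 3.11.15, pandas 2.3.3, scipy 1.17.1 and matplotlib 3.10.9 did the rest.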

Additional observations from a re-analysis of the deposited data

Results flagged for a closer look

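Of 24 groups of 4 NCI-H1975 libraries checked (8 genes in 3 groups), 5 held a library far from the other 3. The check flags about 1 in 20 groups where the 4 libraries are alike and the groups independent. Here the groups share libraries and mix sets A and B, so that rate does not apply. The libraries numbered 1 lay outside the other 9 for 34.0% of 13103 genes. The share of all genes that this check flags is not given, and nothing particular to these genes is drawn from the count. The gap to the nearest other library, as a share of the group's range, was compared with Dixon's critical value at the 95% level. It was 0.866 for MET in control 1, 0.888 in magnolin 1 and 0.886 in chloroform fraction 1, each of them the highest of its group. AXL in control 1 (0.909) and EPHA2 in control 1 (0.83) were also the highest of theirs. All 5 are libraries numbered 1, which carried more epithelial marker RNA than the other 9.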

How the results depend on the processing

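Over 746 alternative settings of 56 tested differences of members, 669 kept direction and side of the threshold, 15 newly passed, 6 no longer passed and 56 changed sign, 53 of these on leaving out a library; the cause was not tested. For the chloroform fraction against control (2918) the count was 1598 without a filter on low genes, and 728 to 3174 leaving out a library (947 without control 3, 728 without control 4); members numbered 3 by voom on rebuilt reads and 1 to 2 leaving out a library. For magnolin against control (92) it was 0 without the filter, 218 at a mean FPKM of 5, 577 by voom, 395 among protein-coding genes, 43 with the replicate block, 165 from the 2 groups alone and 0 to 154 leaving out a library (0 without any control or magnolin library, 154 without chloroform fraction 3, 140 without 4), with 2 members by voom and 2 among protein-coding genes. For the chloroform fraction against magnolin (2188) it was 752 without the filter, 3311 by voom, 1311 with the replicate block, 1034 from the 2 groups alone and 226 to 3017 leaving out a library (951 and 937 without control 3 and 4, 294 and 226 without magnolin 3 and 4), with 2 members at a mean FPKM of 5, 3 by voom, 2 among protein-coding genes and 0 to 4 leaving out a library. In set A the replicate block gave 24, 130 and 24 genes. Over both sets the chloroform fraction against control gave 0 without the filter, 24 with the replicate block, 0 from the 2 groups alone, 0 to 17 leaving out a library (17 without control 1) and, chosen after seeing the data, 222 without the 3 libraries numbered 1; magnolin against control gave 0 to 1 and 10. Number 2 against number 1 (5208) gave 1720 without the filter, 3084 at a mean FPKM of 5 (3 members) and 3294 to 4425 leaving out a library (3294 without chloroform fraction 1, 3327 without 2). The replicate block, which pairs libraries by number, changed no call of a member. By voom, magnolin against control in set B was -0.02 for GAS6, -0.02 for IGF1R and 0.00 for FGFR1. Leaving out a library, differences that changed sign spanned these ranges in set B: MET -0.13 to 0.01 for the chloroform fraction against control; AXL -0.07 to 0.06, GAS6 -0.03 to 0.06, IGF1R -0.03 to 0.05 and FGFR1 -0.09 to 0.14 for magnolin against control; FGFR1 -0.06 to 0.17 between the treatments. In set A without a block, where 1 library left out leaves a group with a lone library assumed to vary like the others, the chloroform fraction against control spanned -1.03 to 0.75 (MET), -0.83 to 0.88 (AXL), -0.33 to 0.51 (GAS6), -0.63 to 0.74 (TYRO3), -0.12 to 0.14 (IGF1R), -0.08 to 0.50 (FGFR1) and -0.36 to 0.65 (EPHA2). Magnolin against control spanned -1 to 0.78 (MET), -1.44 to 0.45 (AXL), -0.25 to 0.69 (GAS6), -0.81 to 0.23 (TYRO3), -0.09 to 0.63 (FGFR1), -0.41 to 0.23 (EPHA2) and -0.14 to 0.30 (DDR1). Chloroform fraction against magnolin spanned -0.62 to 0.55 (MET), -0.43 to 1.46 (AXL), -0.60 to 0.34 (GAS6), -0.35 to 1.03 (TYRO3), -0.42 to 0.31 (FGFR1), -0.27 to 0.74 (EPHA2) and -0.05 to 0.39 (DDR1). DDR1 between the numbers spanned -0.06 to 0.33. With 2 libraries per group and set, an adjusted p that misses the threshold does not show equal levels, and for HGF and RET in NCI-H1975, at 14 and 11 reads in all, depth allows no comparison between treatments.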
